A study of Caenorhabditis elegans with 2 samples.

Results

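The genes described here are 10 Caenorhabditis elegans genes that encode subunits of SNAPc, the complex that activates small nuclear RNA (snRNA) genes, and partner factors for piRNA transcription, out of 19985 annotated protein-coding genes. They were taken by name, and the question is whether SNPC-1.1, a subunit of the complex, lies at the genes of its own complex. The SNAPC1 homologues are snpc-1.1 (chromosome II, 7779297 to 7781301), snpc-1.2 (III, 13165659 to 13169541) and snpc-1.3 (V, 5437084 to 5439168). The SNAPC3 homologues are snpc-3.1 (IV, 5484039 to 5486258), snpc-3.2 (I, 252107 to 254294) and snpc-3.4 (III, 4020037 to 4021883). The remaining genes are snpc-4 (I, 8962322 to 8966129), tofu-4 (I, 4824904 to 4826639), tofu-5 (I, 7069440 to 7070665) and prde-1 (V, 15538244 to 15547086). All positions are on ce11.

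SNAPc is a complex of several subunits that binds a promoter element upstream of small nuclear RNA genes and helps to recruit RNA polymerase II or III. In worms its largest subunit, SNPC-4, also binds upstream of piRNA genes in the germline, together with PRDE-1, TOFU-4 and TOFU-5. SNPC-1.3 is known for a part in piRNA transcription in the male germline. The animals assayed here were hermaphrodites.

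The study was a ChIP-seq experiment with an antibody against GFP. It had 1 group of 2 biological replicates of whole young adult worms from strain YL482. These worms express SNPC-1.1 (C06A8.2) from a transgene that adds a GFP-FLAG tag to its C terminus, and the labels name an insertion aimed at snpc-1.1 without giving its site or copy number. There was no second condition, and a set of libraries without the tag was not analysed here, so no test between groups was made. The deposited lists hold regions with a signal value on a scale that the authors do not state. The reproducible list, which passed the authors' test of irreproducible discovery across replicates, held 1500 regions with signals of at least 58.8. The pooled list of 30000 regions, the replicate 1 list of 29523 and the replicate 2 list of 26195 were inputs to that test and by design include weak regions and background. The regions had a median width of 320 bp, or 336 bp in replicate 2. Signals from the pooled list and the 2 replicate lists are not on 1 scale. Each region is thus also given by its rank within its own list, with 1 for the highest signal. The reproducible and pooled lists had the same highest signal, 10086.9. Read depth is unknown.

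A gene was counted as having a region when the summit lay inside the gene or within 500 bp of its annotated start. In the reproducible list 1 of the 10 genes, snpc-3.4, had a region, and 6.07% of all protein-coding genes did. In the pooled list 9 of 10 had one (all but tofu-5), against 58.2% of protein-coding genes. In the replicate 1 list 8 of 10 had a region (all but snpc-3.1 and tofu-5), against 58.4%. In the replicate 2 list 8 of 10 again had one (all but snpc-1.3 and snpc-3.2), against 54.4%. A region in these long lists is thus the usual state of a worm gene, and the signal and rank say more than presence does. Counted per length, the 10 genes with their start windows held 0.66 pooled regions per kb, against 0.328 per kb over all protein-coding genes. For the reproducible list the figures were 0.0287 and 0.018 per kb, and the first rests on a single region.

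**Figure D1:**
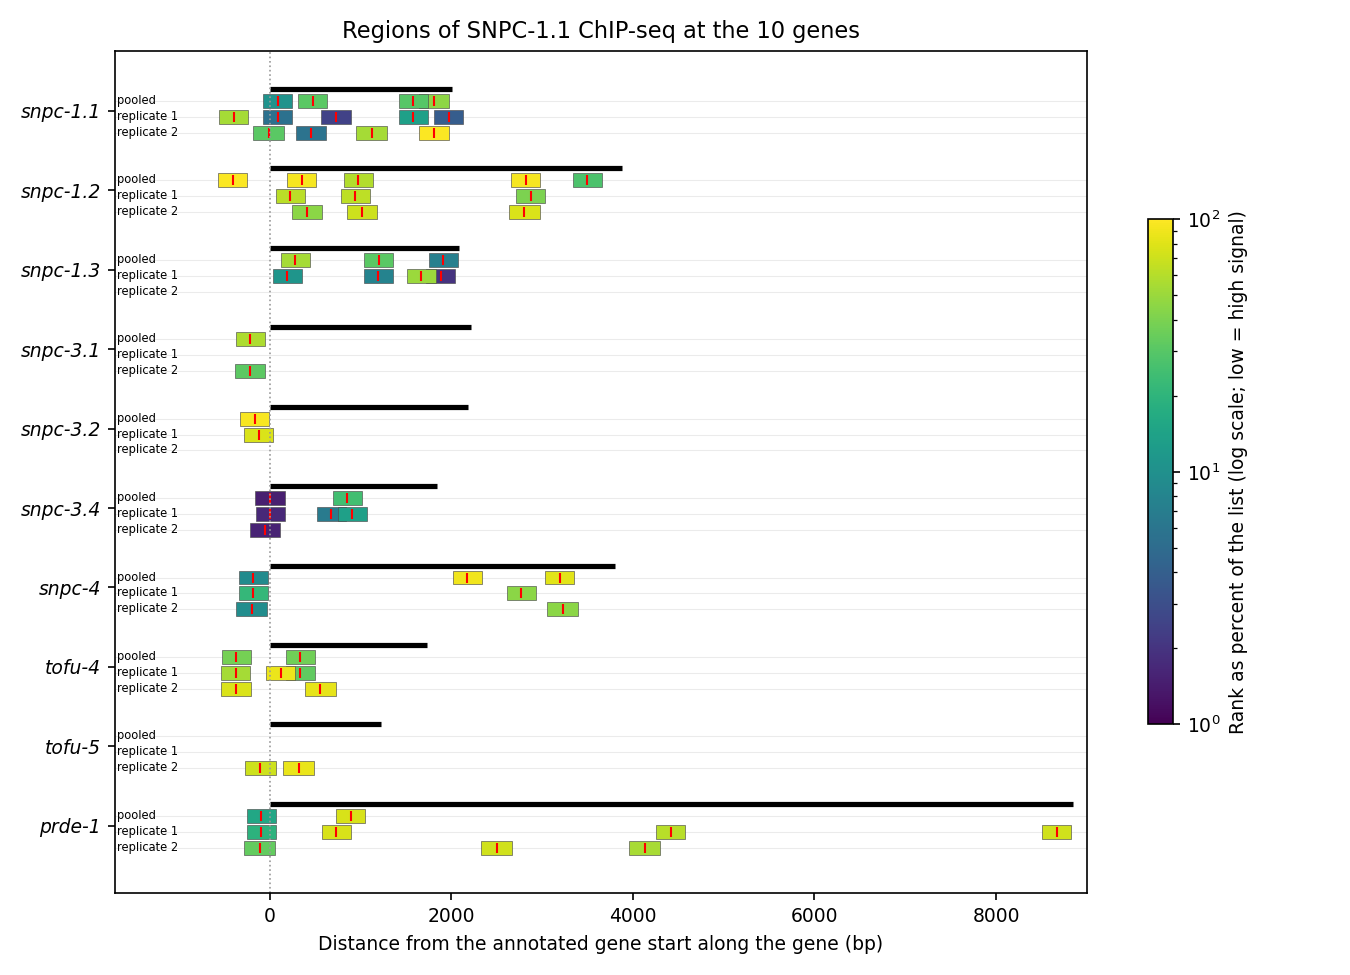
Regions at the 10 genes, drawn by distance in bp from the annotated gene start along the direction of transcription. Black lines are the genes, coloured boxes are regions in the pooled, replicate 1 and replicate 2 lists, red ticks are summits, and colour gives the rank as a percent of the list on a log scale. The darkest boxes in all 3 rows lie over the start of snpc-3.4, and snpc-1.3 has no box in replicate 2.

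The snpc-3.4 gene had the strongest region of the group. Its summit lay at position 4020041, 4 bp inside the gene in the 5′ UTR, in a region from 4019881 to 4020200 with a signal of 114 and rank 442 of both the pooled and the reproducible list. The replicate 1 region had a signal of 44.1 and rank 496, with the summit 6 bp inside the gene. Replicate 2 gave a signal of 77.0 and rank 405, with the summit 50 bp upstream of the start. The ranks in the replicates were close, and the summits lay 2 bp and 54 bp from the pooled one. Over all protein-coding genes, 1.53% had a pooled region of at least this signal, and the share was 1.67% in replicate 1 and 1.37% in replicate 2. No other annotated gene start was within 500 bp of the summit. The closest protein-coding genes in pooled rank were ccar-1, C15C6.3 and rpb-11, an RNA polymerase II subunit gene, at ranks 440, 439 and 446, and their summits were 472, 466 and 115 bp upstream of the starts.

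The place of this summit was not the usual one. At the 749 protein-coding genes with a reproducible region by the start and no small RNA start beside it, the median summit was 188 bp upstream, and 63 (8.41%) were within 50 bp of the start. Downstream of snpc-3.4, on the same strand and 282 bp beyond its end, lies tftc-5, whose name stands for a subunit of the RNA polymerase III factor TFIIIC. It had no reproducible region, and its strongest pooled region had a signal of 24.6 and rank 9426. This neighbour was chosen after its values were seen.

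The bases upstream of snpc-3.4 are shown because they hold the upstream side of the single reproducible region among these genes, and those of prde-1 because its summit lay just upstream of the start in the 3 long lists. For comparison, the 100 bases upstream of the SL2 spliced leader gene sls-2.16 (signal 2914.6) and of the U snRNA gene F42C5.12 (signal 1378) are given, since their reproducible regions had high signals. All 4 are on the plus strand, from the RefSeq sequence of the WBcel235 assembly, whose coordinates are those of ce11. They lie at chrIII:4019881-4020036, chrV:15538060-15538243, chrIII:7141291-7141390 and chrIV:7316632-7316731. Capitals mark any of the 10 words described next.
snpc-3.4: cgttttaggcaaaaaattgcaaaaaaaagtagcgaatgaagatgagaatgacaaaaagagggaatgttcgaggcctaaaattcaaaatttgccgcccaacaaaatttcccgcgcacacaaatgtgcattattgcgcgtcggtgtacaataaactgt
prde-1: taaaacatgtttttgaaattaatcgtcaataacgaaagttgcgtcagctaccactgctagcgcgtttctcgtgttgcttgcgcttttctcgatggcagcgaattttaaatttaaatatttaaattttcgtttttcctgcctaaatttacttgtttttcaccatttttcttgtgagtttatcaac
sls-2.16: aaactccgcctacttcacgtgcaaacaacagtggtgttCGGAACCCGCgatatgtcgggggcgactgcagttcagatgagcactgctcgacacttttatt
F42C5.12: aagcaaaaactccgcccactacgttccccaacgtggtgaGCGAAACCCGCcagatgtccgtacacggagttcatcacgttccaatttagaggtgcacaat

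The words are 10 words of 8 bases, both strands merged. They were taken within 50 bp of the summit at 88 reproducible regions by an snRNA-type start (U snRNA and spliced leader genes). Their share there most exceeded that in 2857 flanking windows. These windows lay 1000 bp to either side of the summits of all nuclear reproducible regions and overlapped no reproducible region. The leading words were CGGAACCC, in 28.4% of the snRNA regions and 0.21% of the flanks, GCGGAACC (27.3% and 0.07%) and CGGGTTCC (21.6% and 0.105%). These overlap each other. The others were CGAAACCC, CGGGTTTC, AAACCCGC, AACCCGCA, GAACCCGC, GGCGGAAC and GCGAAACC. At least 1 of the 10 stood within 50 bp of the summit at 0 of the 23 pooled regions of the 10 genes, and in none of these regions over their full width. The share was 2.42% of all nuclear pooled regions (5.01% over the full width), 51.1% of the snRNA regions from which the words were taken, and 6.35% of the 567 reproducible regions by a protein-coding start with no small RNA start. With 23 regions and a background of a few percent, a count of 0 does not set the 10 genes apart.

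**Figure D2:**
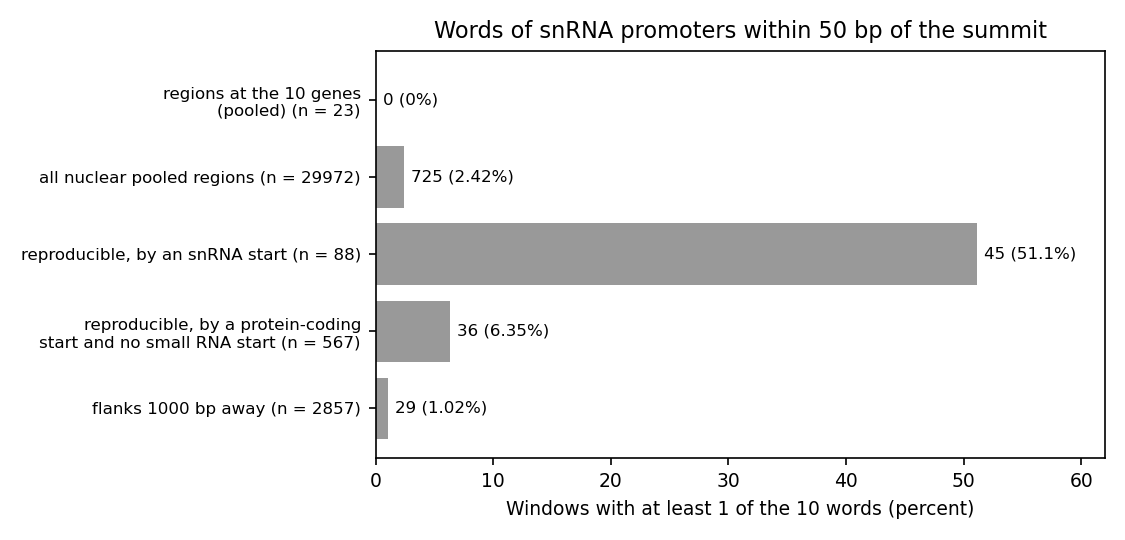
Share of windows, in percent, with at least 1 of the 10 words within 50 bp of the summit, by kind of region, with the number of windows as n. The bar of the 10 genes is at 0 of 23, that of all nuclear pooled regions at 2.42% and that of reproducible regions by an snRNA start, which supplied the words, at 51.1%.

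The core motif of piRNA promoters, CTGTTTCA, was searched on both strands from 250 bp upstream to 50 bp downstream of each gene start. It was found in the windows of 0 of the 10 genes, against 2.32% of protein-coding genes. The shorter forms CTGTTTC and TGTTTCA, which overlap it, were also in 0 of the 10, against 6.15% and 12.4%. Of the 1500 reproducible regions, 1.27% held CTGTTTCA.

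The tagged gene, snpc-1.1, had no reproducible region but had regions along its length in both replicates. In the pooled list there were 4, and the highest had a signal of 39.1 and rank 3220, with the summit 87 bp inside the gene in the 5′ UTR. That summit was also 352 bp from the start of spdl-1, the gene for the kinetochore protein Spindly, on the opposite strand. In replicate 1 the gene and its start window held 5 regions, the highest of which had a signal of 36.2 and rank 733 with its summit in a coding exon 730 bp inside the gene. In replicate 2 there were 4, the highest with a signal of 38.1 and rank 1509 and its summit in an intron 453 bp inside the gene. The strongest summits of the replicates were thus at different places. The 2 regions nevertheless overlapped each other, and both overlapped the pooled region of rank 9169. In replicate 1 2.8% of protein-coding genes, and in replicate 2 6.07%, had a region as high within their list.

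Replicate 1 had more high regions around snpc-1.1 than replicate 2. Within 20 kb on either side of the gene, replicate 1 had 22 regions, 9 of them among its 5000 highest, and replicate 2 had 12, of which 1 was. In replicate 1, 1.18% of protein-coding genes had as many of the 5000 highest regions per kb around them, and in replicate 2 67.5% did. Of the genes without the tag, tofu-5 and snpc-3.4 had similar numbers in replicate 1. There 9 of its 5000 highest regions lay around tofu-5 (as dense at 1.01% of genes) and 8 around snpc-3.4 (1.92%). The rest had fewer, from 0 (snpc-1.2) to 4 (snpc-1.3, snpc-3.1 and prde-1). In replicate 2 tofu-5 and snpc-3.4 had 8 (1.63%) and 5 (10.9%), and the rest of the untagged genes again had 0 to 4. Of the 9 regions, 4 lay inside snpc-1.1 and the others in or beside spdl-1, mthf-1 and C06A8.6, all between -2.066 and 7.997 kb from the start along the gene, where a negative distance is upstream. A transgene can carry further copies of its gene and flanking sequence; its part in these values was not tested.

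**Figure D3:**
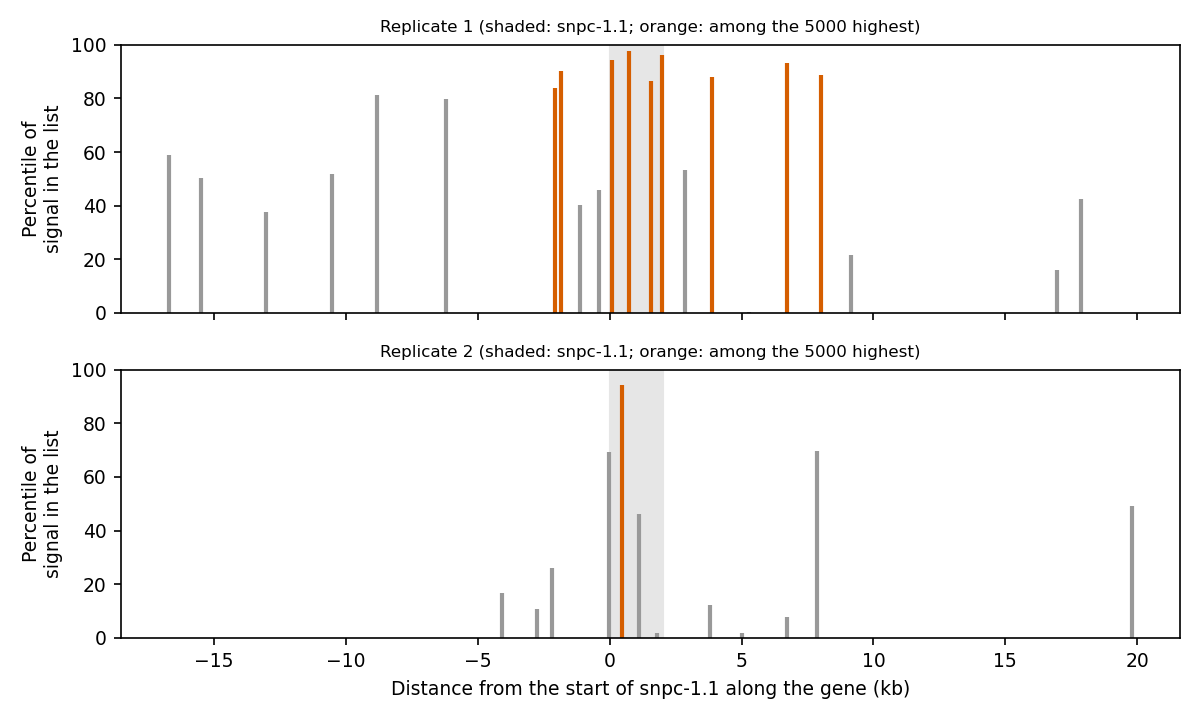
Regions within 20 kb of snpc-1.1 in replicate 1 and in replicate 2, by distance in kb from the start along the gene and by percentile of signal in the list (100 is the highest). Shading marks the gene and orange marks regions among the 5000 highest, of which replicate 1 has 9 and replicate 2 has 1.

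The replicates differed most at snpc-1.3. In replicate 1 the gene had 4 regions, and the highest, with a signal of 41.1 and rank 582, had its summit 1883 bp inside the gene in the 3′ UTR. In replicate 2 it had no region, and the nearest summit lay 534 bp beyond the window, at rank 16532. The pooled list had 3 regions, the highest with a signal of 48.0 and rank 2194, again in the 3′ UTR, beside the end of acl-6, a convergent gene that overlaps snpc-1.3 by 12 bp. This was the member signal nearest below the lowest reproducible one of 58.8. Such a gap was uncommon. Of 1188 protein-coding genes with a region among the 1500 highest of replicate 1, 13 (1.09%) had none in replicate 2. In the other direction it was 21 of 1206 (1.74%), none of them among the 10 genes.

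At snpc-1.2 only the highest pooled region had a signal above the median of the pooled list, 20.5. The highest of 5 pooled regions had a signal of 26.0 and rank 8151, with its summit in a coding exon 3500 bp inside the gene, and neither replicate list had a region overlapping it. In replicate 1 the highest of 3 regions had a signal of 10.3 and rank 11829, with its summit 2876 bp inside the gene. In replicate 2 the highest of 3 had a signal of 14.6 and rank 11875, 411 bp inside the gene. The replicates thus both placed snpc-1.2 near the middle of their lists, with as high a region at 34.3% and 34.0% of protein-coding genes. Their strongest summits were more than 2 kb apart, but each of the 3 regions of replicate 1 overlapped a region of replicate 2. The weakest pooled region, with a signal of 15.0, lay 408 bp upstream, inside the divergent gene Y39E4B.5. R05F9.11, which RefSeq names snpc-1.4 and which is not among the 10 genes, had 2 pooled regions, with a highest signal of 37.9 at rank 3410, and its highest ranks in the replicates were 3479 and 1977. It was added after the values were seen.

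The related genes snpc-3.1 and snpc-3.2 had 1 weak pooled region each, and each had a region in 1 replicate only. The snpc-3.1 region had a pooled signal of 19.5 (rank 16957) and was found in replicate 2 (signal 17.0, rank 8223) and not in replicate 1. Its summit was 216 bp upstream of snpc-3.1 and 239 bp upstream of puf-7, a gene for an RNA-binding protein on the other strand. The snpc-3.2 region had a pooled signal of 15.3 (rank 28471) and was found in replicate 1 (signal 7.4, rank 22933) and not in replicate 2. Much of the sequence of this pair is not unique at a length of 36 bases, and the read length is not given here. Of the 36-base words in snpc-3.1, 34.2% occur once in the genome, and of those in snpc-3.2, 32.7% do. Within 500 bp of the start, where their regions lay, the shares were 34.3% and 52.4%. Of the words of snpc-3.1, 51.3% are also in snpc-3.2. The part of repeated sequence in their low values was not tested. For snpc-1.1, snpc-3.4, snpc-4, tofu-4 and tofu-5 100% of the words in the gene occur once, and for snpc-1.2, snpc-1.3 and prde-1 93.2%, 97.7% and 94.7% do.

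The gene for the large DNA-binding subunit, snpc-4, had its highest region upstream of the start in all 3 long lists. It had a pooled signal of 42.8 and rank 2710, with a summit 179 bp upstream of the start and no other start within 500 bp. The replicate 1 signal was 13.3, at rank 6371, with the summit 182 bp upstream. In replicate 2 the signal was 29.7 and the rank 2478, 198 bp upstream. Both replicates thus placed a region upstream of the start, though at different heights in their lists, and 11.0% of protein-coding genes had a pooled region as high.

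At prde-1, the gene for a partner factor, the highest pooled region had a signal of 32.8 and rank 4673, with the summit 94 bp upstream of the start. In replicate 1 it had a signal of 13.9 and rank 5709, with the summit 90 bp upstream, and in replicate 2 a signal of 16.6 and rank 8704, 111 bp upstream. The 3 summits thus lay within 21 bp of each other, at a height reached by 17.4% of protein-coding genes in the pooled list. Further regions inside prde-1 ranked lower, with summits 895 bp from the start in the pooled list, 732, 4417 and 8668 bp in replicate 1, and 2500 and 4131 bp in replicate 2. The pooled one overlapped the replicate 1 region at 732 bp and no replicate 2 region, and the replicate 1 region at 4417 bp overlapped the replicate 2 region at 4131 bp. The upstream edge of the pooled region by the prde-1 start reaches into the neighbouring gene F21A3.4, which ends 184 bp before prde-1. At tofu-4 the highest pooled region had a signal of 23.2 and rank 11074, in an intron 336 bp inside the gene. A second one, with rank 11438, lay 369 bp upstream, and this summit was nearer, at 64 bp, to the start of htp-3, a meiotic chromosome axis gene on the other strand. In replicate 1 the intron region had a signal of 11.3 and rank 9577, and the upstream one a signal of 9.03. Replicate 2 had the upstream one, with a signal of 11.3 and rank 20098, and another 558 bp inside the gene. Both replicates thus had regions overlapping both pooled ones, and for the intron region the replicate 2 summit lay 222 bp from the pooled one.

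At tofu-5 the pooled list had no region in the window, although its neighbourhood was dense: within 20 kb there were 32 pooled regions, a density per kb reached at 0.2% of protein-coding genes. The nearest pooled summit, with a signal of 22.9, lay 63 bp past the end of tofu-5 and outside the window. Replicate 2 had 2 regions at tofu-5: one 103 bp upstream (signal 11.9, rank 18407), beside nuo-6, a mitochondrial complex I subunit gene on the other strand, and one in an intron (signal 10.7, rank 22584). Replicate 1 had none, and its nearest summit, with a signal of 15.4 and rank 4404, lay 214 bp past the end, in the convergent gene W01A8.6.

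**Figure D4:**
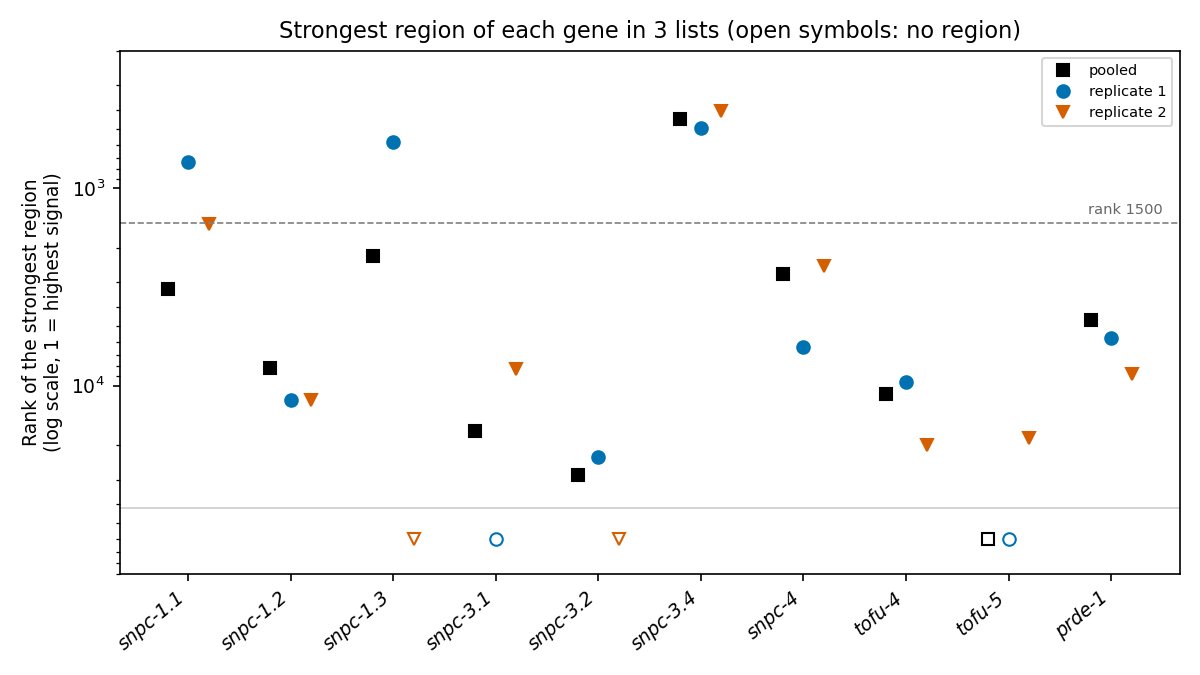
Rank of the strongest region of each of the 10 genes in the pooled, replicate 1 and replicate 2 lists, on a log scale with high signal at the top; open symbols are genes with no region in that list. Only snpc-3.4 lies above the dashed line at rank 1500 in all 3 lists, while snpc-1.1 and snpc-1.3 do so in replicate 1. In replicate 2 snpc-1.1 is just below the line, at rank 1509.

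By pooled signal the order of the genes was snpc-3.4 (114), snpc-1.3 (48.0), snpc-4 (42.8), snpc-1.1 (39.1), prde-1 (32.8), snpc-1.2 (26.0), tofu-4 (23.2), snpc-3.1 (19.5) and snpc-3.2 (15.3), with tofu-5 last with none. In replicate 1 the order began with snpc-3.4 (44.1), snpc-1.3 (41.1) and snpc-1.1 (36.2), and in replicate 2 with snpc-3.4 (77.0), snpc-1.1 (38.1) and snpc-4 (29.7). Only the place of snpc-3.4 at the top was shared by the 3 lists. With 2 replicates whose orders differ, the neighbours below snpc-3.4 cannot be ranked. Among the 5000 highest pooled regions, 5 of the 10 genes had a region (snpc-3.4, snpc-1.3, snpc-4, snpc-1.1 and prde-1), against 18.4% of protein-coding genes.

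**Figure D5:**
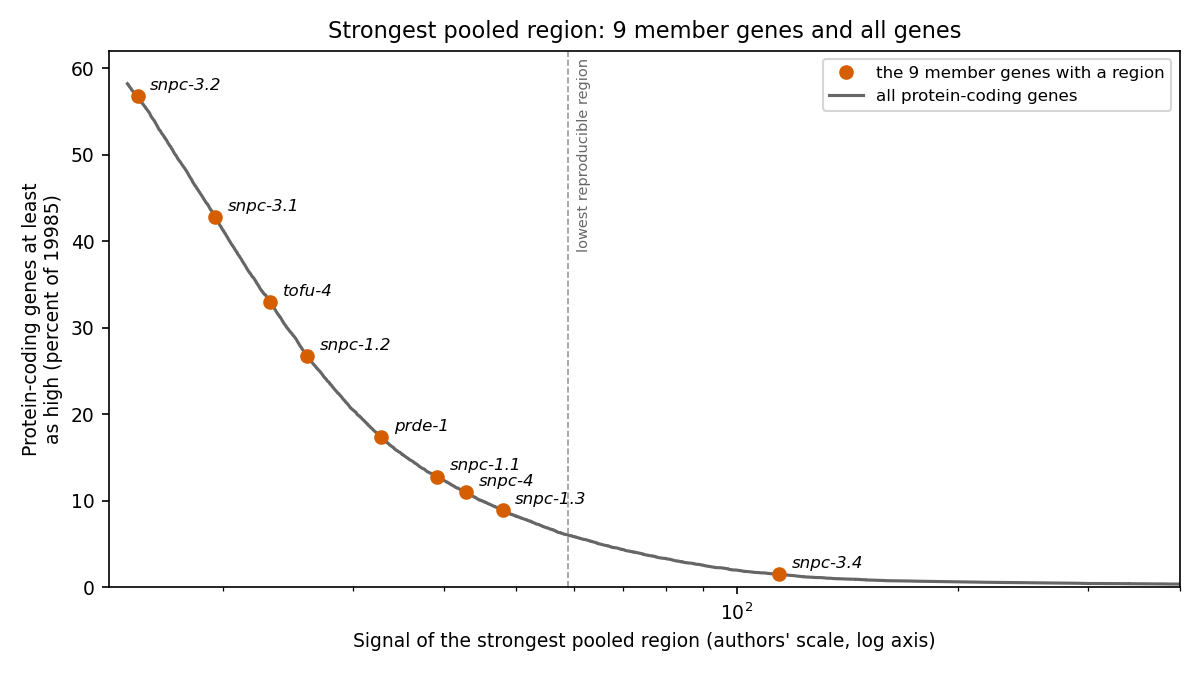
Share of protein-coding genes, in percent of 19985, whose strongest pooled region is at least as high as the signal on the x axis (log scale), with 9 of the 10 genes marked in orange. The dashed line is the lowest reproducible signal, 58.8, and only snpc-3.4 lies to its right.

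Apart from snpc-3.4, the nearest reproducible summit lay 4051 bp outside the window for snpc-4 (signal 134, rank 332), 4827 bp for prde-1, 8966 bp for tofu-5 and 10678 bp for snpc-3.1. For snpc-1.1, tofu-4, snpc-1.3, snpc-1.2 and snpc-3.2 it lay between 20427 and 60880 bp away.

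Counting only summits within 500 bp of a start, 9 of the 10 genes had a pooled region, against 37.7% of protein-coding genes. A region by the start in both replicate lists was found at 6 of the 10 (snpc-1.1, snpc-1.2, snpc-3.4, snpc-4, tofu-4 and prde-1), against 21.4%. Of the 12 pooled regions by a start, 5 also lay within 500 bp of the start of another gene, and none of all 23 was by a tRNA, snRNA, snoRNA, rRNA or miRNA start. Of the 23, 12 overlapped a region in both replicates, 7 in replicate 1 only, 2 in replicate 2 only and 2 in neither. Over all pooled regions, 59.0% overlapped a region in replicate 1 and 64.3% one in replicate 2. By annotation, 6 summits lay outside the gene, 2 in the 5′ UTR, 8 in introns, 6 in coding exons and 1 in the 3′ UTR. For other starts, small RNA starts, overlap in both replicates and place, the shares of all pooled regions are not given here. Those counts of the 23 regions thus do not set the 10 genes apart. Near the other end of the gene, within 200 bp of the annotated 3′ end, 4 of the 10 (snpc-1.1, snpc-1.2, snpc-1.3 and tofu-5) had a pooled summit, against 22.3% of protein-coding genes, and 0 of the 10 had a reproducible one there, against 1.66%. In replicate 1 it was also 4 of the 10, against 20.6%, but these were snpc-1.1, snpc-3.4, tofu-4 and prde-1, and in replicate 2 it was snpc-1.1 alone, against 19.3%. That distance was chosen after the values were seen.

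Other genes of the pathway are given for comparison. Of 20 annotated genes that act in the piRNA pathway or as germline Argonautes, 7 had a reproducible region, or 35.0%, and 19 had a pooled one. The difference from the 10 genes was not tested. The 7 were prg-1, the piRNA Argonaute gene (signal 125), csr-1 (97.0), wago-1 (66.7), wago-4 (119), hrde-1 (100), all further Argonaute genes, the germ granule helicase gene znfx-1 (143) and tofu-6 (68.8). At prg-1, csr-1, wago-1 and hrde-1 the strongest summit was in the 3′ UTR, between 3000 and 4797 bp inside the gene, while at znfx-1, wago-4 and tofu-6 it was 389, 205 and 57 bp upstream of the start. Of 15 annotated core transcription factor and polymerase subunit genes, 3 had a reproducible region (20%): rpac-19 (signal 108, 100 bp upstream) and rpb-12 (95.3, 267 bp upstream), which encode polymerase subunits, and tlf-1 (77.4, in an intron), which encodes a relative of the TATA-binding protein. The share was thus 1 of 10 for the SNAPc and partner genes, 7 of 20 and 3 of 15 for these lists, and 6.07% for all protein-coding genes.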

How the data were processed

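The 2 biological replicates of SNPC-1.1 GFP ChIP-seq formed 1 group. The authors deposited, per the labels and the text files beside the lists, regions called per replicate and on both together, with a control alignment, and a reproducible set, each on ce11 and ce10. The signal column is the authors' own value per region, on a scale not stated, and the p-value column held no values. Signals were used within a list only, except that pooled signals were set beside the lowest reproducible one. Which aligner, caller and thresholds were used is not given in the sources used here. Of the lists, the 4 on ce11 were used and the 4 on ce10 were not, since the annotation (Ensembl release 115, WBcel235) and the RefSeq sequence are ce11, and all regions lay within the chromosome lengths.

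Summits, 1-based, were computed from each region's start and the offset in the file. Genes were matched by name, all 10 were found, and counts were made with Python 3.11.15, numpy 2.4.6 and pandas 2.3.3, after the matching of regions to genes was checked on made-up data. R05F9.11 and snpc-3.3 were paired with RefSeq symbols by locus name or identical coordinates. snpc-3.3, a pseudogene, had no region. Of the fixed lists, pics-1 and bdp-1 were not matched by name. Members, lists and tests were chosen with earlier results of these data known. Genes named in the text are the 10 genes, genes with a start within 500 bp of their summits, list members with a reproducible region and the 3 closest protein-coding genes in rank; neighbouring genes and others were named after the values were seen. No test was made: counts stand beside the share of all protein-coding genes. The 10 words were chosen after the data were seen. Depth per sample is unknown.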

Additional observations from a re-analysis of the deposited data

How the results depend on the processing

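The counts of genes with a region were recomputed under 32 alternatives over the 4 lists, and 27 stayed within 1.5 times the count reported. Windows of 200 and 1000 bp, start windows without the gene body, overlap in place of the summit, the starts of all transcripts and merging of overlapping regions all stayed within it, and snpc-3.4 was the single gene in the reproducible list under each and under a stricter signal threshold. Overlap in place of the summit brought tofu-5 into the pooled list. The 200 bp window took snpc-3.1 out of the pooled and replicate 2 counts. In the pooled and replicate lists most of the group had a region, so those counts could leave the limit only by falling. The shares of protein-coding genes also changed. In the pooled list 58.2% became 52.6% (200 bp), 63.8% (1000 bp), 37.7% (no gene body) and 62.3% (overlap). In the reproducible list 6.07% became 4.18%, 7.26%, 4.25% and 7.12% in the same order. Shorter lists gave lower counts, since fewer regions are counted. There was 1 gene with the 1500 highest pooled regions, against 6.07% of protein-coding genes, and 5 with the 5000 highest, against 18.4%. With the 1500 highest of replicate 1 there were 3, against 5.94%, and with those of replicate 2 there was 1, against 6.03%. Leaving out a replicate, with the 1500 highest regions of the remaining one in place of the reproducible list, gave 1 to 3 genes. Without replicate 2 these were snpc-1.1, snpc-1.3 and snpc-3.4, against 5.94% of protein-coding genes, and without replicate 1 snpc-3.4 alone, against 6.03%. Leaving out a replicate repeats the run with the 1500 highest regions of the other. The run with the 1500 highest pooled regions gave the same gene and the same share, 6.07%, as the reproducible list of 1500 regions. The 32 alternatives are thus not all separate checks. Of 65 recomputed values of the strongest pooled signal, 63 stayed the same. Without the gene body that of snpc-1.3 was 19.9 and that of snpc-1.2 was 15.3. With 2 replicates, no test between groups and no read depth, a missing region in a list is not the absence of binding. No paired analysis was possible because there was 1 group and no test.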
